A study of Mus musculus with 2 samples.

Results

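Chromosome 8 held 211 of the 2245 regions called as enriched for DNA N6-methyladenine (6mA, adenine with a methyl group on its amino nitrogen) in mouse embryonic brain. They are all rows of chromosome 8 in either of 2 peak lists, 109 of 1239 peaks in the list of the embryonic day 9.5 (E9.5) library and 102 of 1006 in that of the embryonic day 8.5 (E8.5) library. The assay, MeDIP-seq, sequences the sheared genomic DNA that binds to a 6mA antibody. Each stage had 1 library of brain tissue, with no treatment per the labels, and neither strain nor the number of embryos is stated. One input library, whose stage is not stated, served as control for both lists, and the library names in the file headers carry no stage. Embryos of mice on a low-folate diet injected with MTX, a folate antagonist, and low-folate embryonic stem cells appear in the study's protocols and were not analysed here. DNA peaks hold no marker levels against which the tissue label could be checked. The window from 19 to 21 Mb was compared with the rest of the chromosome. It was picked with earlier results of these lists known, as a stretch with beta-defensin and predicted genes, so its richness in peaks is a description and no result.

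The window carries the name of the beta-defensin cluster, but the peaks did not lie at defensin genes. No gene of the 24 beta-defensins of chromosome 8 had a peak in its body or within 2 kb of it, at E9.5 or at E8.5. Over all annotated genes 0.877% had an E9.5 peak and 0.741% an E8.5 peak by the same measure, so a count of 0 in 24 genes describes where the peaks lie and is no sign of depletion. Nearly all peaks of the window lay instead in a neighbouring stretch of predicted genes and pseudogenes. The window is therefore called here by its position.

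Beta-defensins (Defb genes) and alpha-defensins (Defa genes) encode small cysteine-rich antimicrobial peptides. The beta class acts mainly at epithelia, and the alpha class of mice includes the cryptdins of intestinal Paneth cells. Both families lie in tandem arrays that arose by repeated gene duplication. Methylated adenine is abundant in bacterial DNA, and its level and place in mammalian DNA are debated. Sequence that exists in several near-identical copies is a known difficulty of any sequencing assay, because a fragment from such a copy cannot be placed with certainty.

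Promoter sequences from RefSeq (build GRCm38.p6, the assembly named mm10) are printed to show what the peaks cover and how alike the copies in the window are. Each holds 300 bases, 250 before and 50 after a listed start site, 5′ to 3′ on the gene's own strand, with capitals for bases inside a peak of either library. On chromosome 8 an E9.5 peak overlapped 1 of 22 promoters of the window and 2 of 1420 elsewhere, and an E8.5 peak overlapped 1 of 22 and 0 of 1420. Over all 32851 promoters the counts were 6 (0.0183%) at E9.5 and 5 (0.0152%) at E8.5. They are Gm46074 (chr8:20649078-20649377, plus strand, peaks in both libraries), Gm51573 (chr8:55372243-55372542, plus strand) and Gm39232 (chr8:100726272-100726571, minus strand). The promoter of 4930467E23Rik (chr8:19729326-19729625, plus strand) held no peak and is shown because the same 300 bases stand at Gm15319 (chr8:20363153-20363452, minus strand) and at Gm21119 (chr8:20614677-20614976, plus strand).
Gm46074: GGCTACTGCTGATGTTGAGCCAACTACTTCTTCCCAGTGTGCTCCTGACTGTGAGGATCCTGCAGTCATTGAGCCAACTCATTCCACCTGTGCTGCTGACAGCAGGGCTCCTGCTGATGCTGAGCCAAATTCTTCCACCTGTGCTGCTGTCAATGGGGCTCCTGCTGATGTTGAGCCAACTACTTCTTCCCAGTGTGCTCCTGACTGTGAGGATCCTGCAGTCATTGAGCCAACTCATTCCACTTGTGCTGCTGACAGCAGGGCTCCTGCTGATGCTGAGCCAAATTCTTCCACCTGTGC
Gm51573: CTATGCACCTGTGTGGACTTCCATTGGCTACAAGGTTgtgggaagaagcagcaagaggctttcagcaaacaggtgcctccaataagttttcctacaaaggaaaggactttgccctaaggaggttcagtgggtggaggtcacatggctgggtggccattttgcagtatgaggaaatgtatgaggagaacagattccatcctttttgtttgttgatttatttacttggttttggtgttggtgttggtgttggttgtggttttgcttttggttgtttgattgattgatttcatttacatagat
Gm39232: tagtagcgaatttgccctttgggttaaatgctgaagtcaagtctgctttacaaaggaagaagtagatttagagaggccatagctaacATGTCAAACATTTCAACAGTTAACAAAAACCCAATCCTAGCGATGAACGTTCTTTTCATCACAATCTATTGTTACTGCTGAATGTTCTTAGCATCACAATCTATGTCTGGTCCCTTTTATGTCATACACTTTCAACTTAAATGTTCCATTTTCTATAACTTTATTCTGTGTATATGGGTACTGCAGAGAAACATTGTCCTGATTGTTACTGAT
4930467E23Rik: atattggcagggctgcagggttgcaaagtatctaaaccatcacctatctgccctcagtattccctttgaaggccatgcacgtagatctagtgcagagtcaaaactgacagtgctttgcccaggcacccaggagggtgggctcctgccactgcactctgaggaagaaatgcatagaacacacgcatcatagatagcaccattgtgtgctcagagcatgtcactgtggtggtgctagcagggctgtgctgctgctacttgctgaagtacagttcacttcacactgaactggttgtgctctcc

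Gm46074 is a long non-coding gene, and its promoter lay wholly inside a peak of both libraries. That promoter is itself a tandem repeat: shifted against itself by 156 bases, 142 of the 144 compared bases were equal. Its 300 bases held 163 different stretches of 12 bases out of 289 possible, and no other promoter in the table shared more than 4 of them. On the gene's own strand adenine made up 17.7% of it, against 27.2% over the 22 promoters of the window and 23.2% over all 32851 promoters. Adenine on the opposite strand was not counted and peaks carry no strand, so this share does not show that the promoter is poor in adenine. The letters GATC, which read the same on both strands and are the site of the bacterial Dam methylase, occurred 2 times in it. At least 1 GATC was found in 68.2% of the window's promoters and in 48.0% of all. The peak over this promoter had a pileup, the number of fragments covering its summit, of 16 at E9.5 and 17 at E8.5. The E8.5 summit lay 9 bp after the start site, inside the printed bases. The E9.5 summit lay 456 bp after it, outside them, so the 16 fragments are not a count at the promoter. The q-values were 0.194 at E9.5 and 0.0275 at E8.5.

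The other promoters with a peak were covered in part and at E9.5 only. The Gm51573 promoter had 37 bases inside its peak, and it shared 211 of its 283 different 12-base stretches with the promoter of its neighbour Gm51593. For Gm39232, a long non-coding gene, 213 of 300 bases were covered. Exact copies of a promoter at another gene were found for 3 of the 22 promoters of the window, 20 of the 1420 on the rest of the chromosome (1.41%) and 518 of all 32851 (1.58%). The 3 copies in the window are those of 4930467E23Rik, Gm15319 and Gm21119, all annotated as protein-coding.

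The window from 19 to 21 Mb held 67 of the 109 E9.5 peaks of chromosome 8 (61.5%, exact 95% interval 51.7% to 70.6%) and 68 of the 102 E8.5 peaks (66.7%, 56.6% to 75.7%). These are 5.41% of the whole E9.5 list and 6.76% of the E8.5 list. Intervals are Clopper-Pearson and cover counting error only (PCR copies are not independent molecules), and with 1 library per stage no difference between the stages was tested. The window had 33.5 peaks per Mb at E9.5 and 34 at E8.5, against 0.330 and 0.267 per Mb over the rest of the 129.2 Mb from the first to the last gene.

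**Figure D1:**
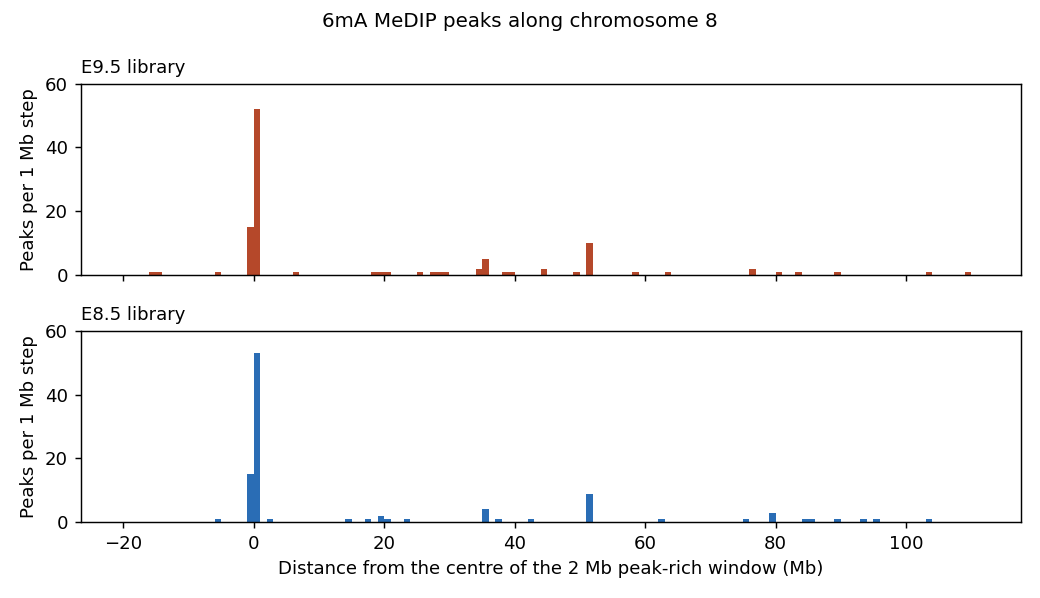
Number of peaks in each 1 Mb step of chromosome 8 (vertical axis) by distance from the centre of the window in Mb (horizontal axis), E9.5 above and E8.5 below. The step just right of the centre holds 52 E9.5 and 53 E8.5 peaks, the step just left holds 15 in each, and no other step holds more than 10.

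Within the window the peaks began and ended at nearly the same places in both libraries. All 67 E9.5 peaks lay between 19685643 and 20831104, and 67 of the 68 E8.5 peaks between 19683321 and 20834930, at 58.5 and 58.2 peaks per Mb, in a stretch whose ends were set after the lists were seen. No peak of either library lay in the neighbouring steps from 18 to 19 Mb or from 21 to 22 Mb. The step of 100 kb that starts at 20.5 Mb held 9 E9.5 and 11 E8.5 peaks, and the step before it held 9 and 6. Several parts of the stretch were empty in both lists. The longest such gaps ran from 20155400 to 20263213 (108 kb), from 19802363 to 19907999 (106 kb) and from 20711997 to 20813301 (101 kb). Whether the gaps hold sequence that could be aligned was not tested.

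**Figure D2:**
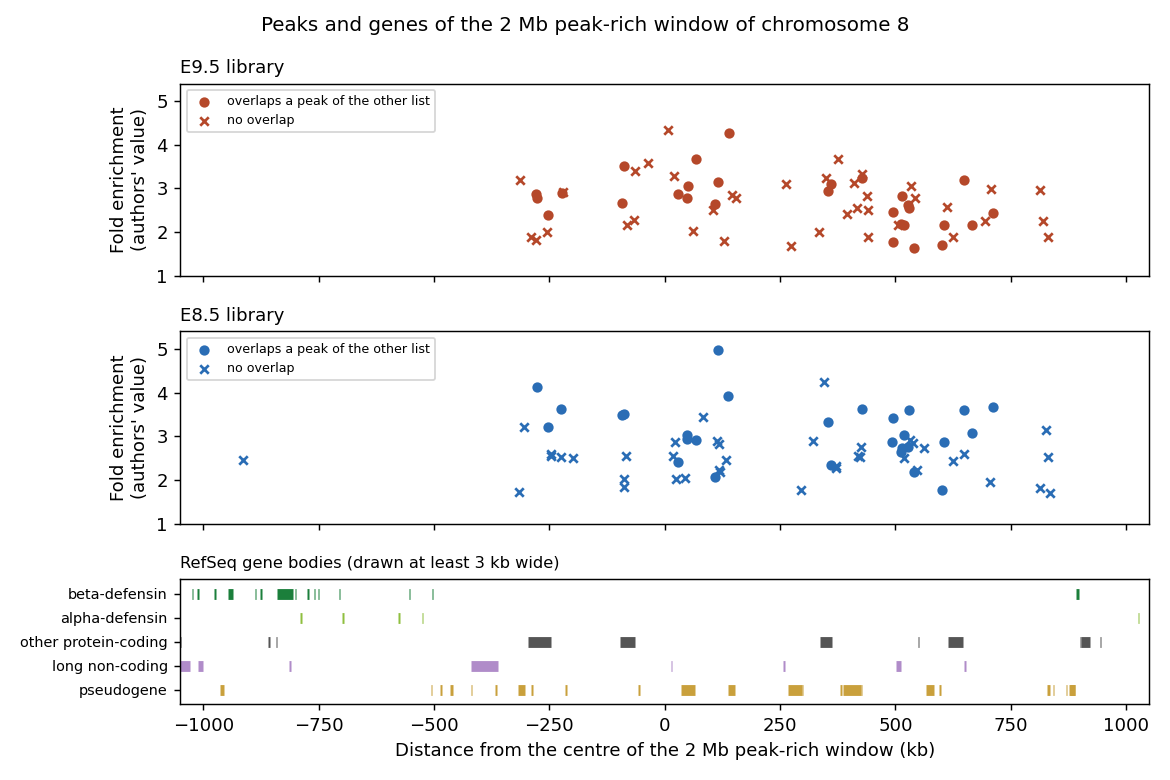
Fold enrichment of each peak (vertical axis, the authors' value) by distance of its summit from the centre of the window in kb (horizontal axis), E9.5 above E8.5, with RefSeq gene bodies underneath, defensin pseudogenes drawn with the alpha-defensins. Filled circles overlap a peak of the other list and crosses do not. The beta-defensin genes on the left and Defb33 on the right stand outside the peaks, apart from 1 E8.5 peak on the left.

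The beta-defensin array proper was almost empty. Its 14 genes from Defb40 to Defb7 lie between 18974914 and 19497775, a block of 523 kb that held 0 E9.5 peaks and 1 E8.5 peak. That E8.5 peak (19085544 to 19085806) lay between Defb39 and Defb12, 20.6 kb and 26.1 kb from them, with a pileup of 9 (exact Poisson interval 4.12 to 17.1) and a q-value of 1. Defb14 lay 490 kb from the nearest E9.5 peak and 74.4 kb from the nearest E8.5 peak. Defb33, the beta-defensin gene on the far side of the stretch, lay 61.6 kb from the nearest E9.5 peak and 57.7 kb from the nearest E8.5 peak. The other 9 beta-defensin genes of the chromosome, between Defb1 and Defb13, lay at least 839 kb from any peak of either list. Among the 40 alpha-defensin genes and pseudogenes none had a peak within 2 kb, which by the same shares of all genes shows little, and the nearest peaks were 194 kb away at E9.5 and 125 kb away at E8.5. Spag11a and Spag11b, epididymal genes of defensin type inside the array, held none either. An empty stretch means that the peak caller listed nothing, not that 6mA was absent.

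Genes of the window that did hold peaks were predictions, RIKEN clones and pseudogenes. Of its 57 annotated genes of any kind, 13 (22.8%) had an E9.5 peak within 2 kb and 14 (24.6%) an E8.5 peak, 12 of them in both. On the rest of the chromosome 24 of 2324 genes (1.03%) had an E9.5 peak and 22 (0.947%) an E8.5 peak. Over all 49943 genes placed on the chromosomes the shares were 0.877% at E9.5 and 0.741% at E8.5. Protein-coding genes with a peak in both libraries were 4 of the 23 of the window, namely 4930467E23Rik, 9530057J20Rik, Gm15319 and Gm21119, none with a function that the annotation gives. 4930467E23Rik had 6 E9.5 and 4 E8.5 peaks, 9530057J20Rik had 5 and 5, Gm15319 had 3 and 3, and Gm21119 had 2 and 2. The pseudogene Gm20778 had 4 E9.5 and 3 E8.5 peaks, and the transcribed pseudogene 2610005L07Rik had 3 and 3. By position of the peaks, 38 of 67 E9.5 peaks (56.7%) and 44 of 68 E8.5 peaks (64.7%) lay in no gene body of any kind. Gene bodies cover 26.3% of the window, and pseudogenes 10.2% of it, against 47.6% and 0.673% of the rest of the chromosome.

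The genes with one shared promoter allowed peak positions to be set side by side. Distances are from the listed start site of the shared promoter, positive in the direction of transcription. For 4930467E23Rik that site (19729576) lies inside the annotated body (19704311 to 19753603), so its negative distances given here fall within the gene. For Gm15319 and Gm21119 the negative distances given here fall upstream of the body. Summits of 4930467E23Rik lay at -7.12 kb at E9.5 and at -7.11 kb at E8.5, and one of Gm15319 at -7.20 kb at E8.5. Further in, 4930467E23Rik had a summit at 17.1 kb at E9.5 and at 17.0 kb at E8.5, and Gm15319 had one at 16.7 kb at E8.5. Gm21119 had no summit near either place. At E9.5 the match was another one, at -9.42 kb for 4930467E23Rik and at -9.76 kb for Gm21119. Within 25 kb of the start site, 1 of the 6 E9.5 summits of 4930467E23Rik, 0 of 4 of Gm15319 and 1 of 4 of Gm21119 had a counterpart within 500 bp at another copy. At E8.5 the counts were 2 of 4, 2 of 5 and 0 of 3. In neither library did a summit recur at all 3 genes within 500 bp. How many counterparts unrelated positions would give in so dense a stretch was not tested, so these matches do not show that the copies correspond.

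Peaks of the window were spaced by kilobases, and peaks elsewhere mostly by more than 100 kb. The median distance between neighbouring summits inside the window was 9.49 kb at E9.5 (quartiles 3.81 and 16.0 kb) and 6.80 kb at E8.5 (2.54 and 20.4 kb). On the rest of the chromosome it was 1029 kb at E9.5 (39.5 and 4782 kb) and 1420 kb at E8.5 (42.9 and 4161 kb). Distances under 10 kb made up 36 of 66 inside the window and 8 of 40 outside it at E9.5, and 40 of 67 inside and 4 of 32 outside at E8.5. Distances under 5 kb inside the window numbered 19 of 66 at E9.5 and 31 of 67 at E8.5.

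**Figure D3:**
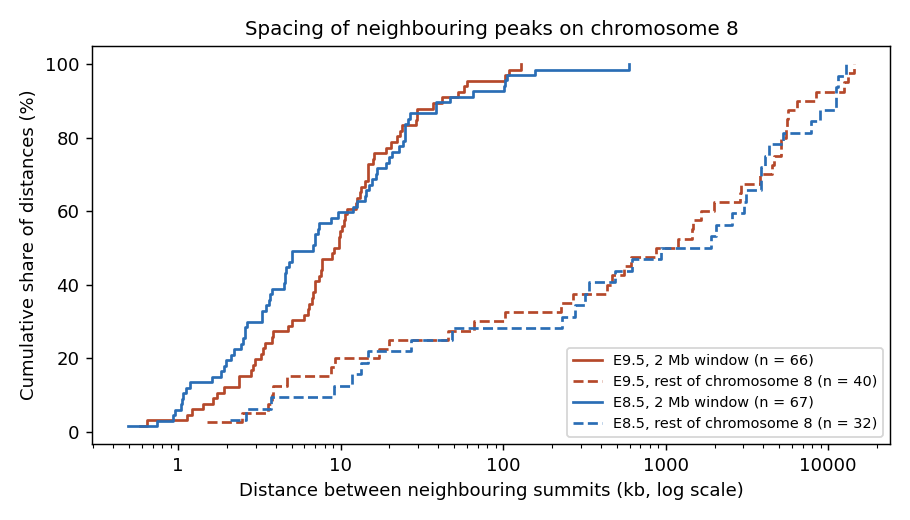
Cumulative share of distances between neighbouring summits (vertical axis, percent) by distance (horizontal axis, kb, log scale), solid lines for the window and dashed lines for the rest of the chromosome. Distances under 5 kb make up 28.8% of those of the window at E9.5 and 46.3% at E8.5. The window curves reach 50% near 9.49 kb at E9.5 and 6.80 kb at E8.5.

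Median pileups were higher inside the window than over the rest of the chromosome as a whole, while folds differed less. The median pileup inside was 18 fragments at E9.5 (range 9 to 42) and 17 at E8.5 (9 to 35), and outside it was 11 at E9.5 (8 to 68) and 11 at E8.5 (8 to 66). On the other chromosomes it was 11 in each library. Outside peaks that lie in groups, defined below, had median pileups of 21 at E9.5 and 15 at E8.5, and lone ones 9 and 10. Pileups like those of the window were thus not particular to it. The order-statistic intervals of the medians were 17 to 19 inside and 10 to 17 outside at E9.5, and 15 to 19 inside and 10 to 15 outside at E8.5. The median fold enrichment, the authors' ratio of pileup to local background with 1 added to each, was 2.67 inside and 2.41 outside at E9.5, and 2.68 inside and 2.47 outside at E8.5. Its intervals, 2.45 to 2.88 and 2.41 to 2.66 at E9.5, and 2.53 to 2.87 and 2.45 to 2.71 at E8.5, overlapped. Peaks were 373 bp long at the median inside and 334 bp outside at E9.5, and 351.5 bp inside and 294 bp outside at E8.5. Neighbouring peaks are not independent, so these intervals are too narrow. Each peak also had to pass a p-value of 0.01 against its local background, so over a higher background only larger pileups are listed. The lowest pileup that could be listed thus depended on the background. How much of the difference in pileup comes from this was not tested, and the comparison is a description.

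The local background was higher inside the window too. It is the number of fragments the peak caller set against the pileup, the highest of the input coverage nearby and a genome-wide minimum, and was recovered here from pileup and fold. The median was 6.17 fragments inside and 3.44 outside at E9.5, and 5.60 inside and 3.05 outside at E8.5. Only 1 of 67 E9.5 peaks and 2 of 68 E8.5 peaks of the window had the genome-wide minimum as background, against 18 of 42 and 18 of 34 on the rest of the chromosome. On the other chromosomes the share was 51.8% at E9.5 and 49.3% at E8.5. The background was above the minimum at nearly every peak of the window, and the part of sequence copies in pileup and input was not tested.

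**Figure D4:**
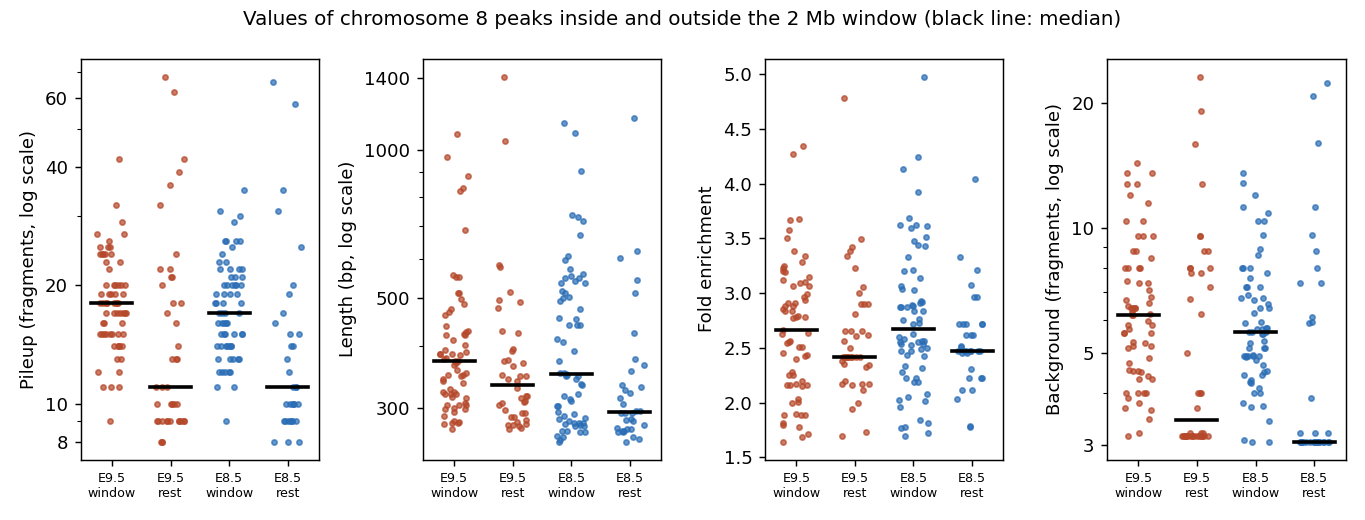
Pileup, length, fold enrichment and background of every chromosome 8 peak (1 dot per peak, vertical axes with their units) inside the window and on the rest of the chromosome, for E9.5 and then E8.5, with a black line at the median. Median pileups are 18 and 17 inside and 11 and 11 outside, and many peaks outside lie at the lowest background.

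Few peaks passed a corrected threshold. Of the 67 E9.5 peaks of the window, 10 had q-values up to 0.05 (14.9%, interval 7.40% to 25.7%), as did 13 of the 68 E8.5 peaks (19.1%, 10.6% to 30.5%). Over each whole list the share was 12.8% at E9.5 and 12.8% at E8.5, within both intervals. A q-value of 1 was listed for 33 of 67 and 36 of 68 peaks of the window, and for 30 of 42 and 27 of 34 peaks outside it.

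The highest fold of the window at E9.5 was 4.35, at 20006380 to 20006728, with a pileup of 17 (9.90 to 27.2) and a q-value of 0.000933. It lay in no annotated gene, overlapped no E8.5 peak and was the only E9.5 peak of the window with the minimum background. A peak in the pseudogene Gm21811 (20138188 to 20138874) followed with 4.27-fold enrichment and 24 fragments at E9.5, and its E8.5 partner had 3.92-fold enrichment and 23 fragments. This pair ranked first among the pairs of the window by mean rank of fold. The largest pileup of the window at E9.5, 42 (30.3 to 56.8), stood at 20409750 to 20410076 in 2610005L07Rik, with a fold of 3.12. A peak 13.6 kb upstream of the Gm15319 start site (20376492 to 20377002) had 32 fragments with 3.67-fold enrichment and a q-value of 5.35e-06 at E9.5, without an E8.5 partner.

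At E8.5 the highest fold of the window was 4.98, at 20115118 to 20115508 in no annotated gene, with a pileup of 26 (17.0 to 38.1) and a q-value of 8.63e-08. Its E9.5 partner had 3.15-fold enrichment and 17 fragments (9.90 to 27.2), and the intervals overlapped. Gm15319 carried the next, with 4.24-fold enrichment and 22 fragments, without an E9.5 partner. A peak of 1079 bp in 4930467E23Rik (19721594 to 19722672) had 4.13-fold enrichment and 26 fragments at E8.5. At E9.5 it was split into 2 shorter peaks, with folds of 2.88 and 2.78 and pileups of 20 and 18. In 9530057J20Rik the 2 libraries had their summit at the same base, with 22 fragments and 3.50-fold enrichment at E9.5 and 21 fragments and 3.51-fold enrichment at E8.5.

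The remaining peaks among the 8 highest folds of each list ranged from 3.34 to 3.67 at E9.5 and from 3.61 to 3.68 at E8.5. At E9.5 they included a second peak of 9530057J20Rik (fold 3.39) and a peak within 2 kb of Gm20778 (fold 3.67, and 2.92 for its E8.5 partner). At E8.5 a peak of 903 bp at 20529665 to 20530567, in no gene, had 30 fragments and 3.61-fold enrichment, and its E9.5 partner 24 fragments and 2.55-fold enrichment.

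Fewer peaks of the window recurred than did not recur at the other stage. An overlap of at least 1 bp with an E8.5 peak was found for 29 of 67 E9.5 peaks (43.3%, interval 31.2% to 55.96%), and 28 of 68 E8.5 peaks (41.2%, 29.4% to 53.8%) overlapped an E9.5 peak. Over the whole lists the shares were 22.8% of the E9.5 peaks and 27.9% of the E8.5 peaks, and both lay below these intervals. On the rest of chromosome 8 they were 10 of 42 E9.5 peaks (23.8%, 12.1% to 39.5%) and 10 of 34 E8.5 peaks (29.4%, 15.1% to 47.5%), whose intervals overlap those of the window. Peaks with the minimum background on the rest of the chromosome had no partner (0 of 18 at E9.5 and 0 of 18 at E8.5). The window held only 1 and 2 such peaks, so these shares compare sets of peaks with unlike backgrounds. Both lists share the input library, and its part in the overlap was not tested. Among E9.5 peaks of the window, 5 of 10 with q-values up to 0.05 and 24 of 57 with larger ones had an E8.5 partner of any q-value. Among E8.5 peaks the counts were 11 of 13 and 17 of 55. The order of window and rest turned round when both lists were limited to q-values up to 0.05. The overlap was then 20% at E9.5 and 15.4% at E8.5 inside the window (2 of 10 and 2 of 13), and 50% and 75% on the rest of the chromosome (3 of 6 and 3 of 4).

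Summits of the 29 pairs of the window lay a median of 86 bp apart (0 to 663 bp), and 16 pairs lay within 100 bp. E9.5 had the higher pileup in 10 pairs, the lower in 17 and the same in 2, and the exact intervals overlapped in all 29 pairs. Folds were lower at E9.5 in 22 of the 29 pairs, with medians of 2.78 at E9.5 and 3.06 at E8.5. The E8.5 peak from 19721594 to 19722672 overlapped 2 E9.5 peaks and so enters 2 of these pairs. Both of those pairs had the lower pileup and the lower fold at E9.5. On the rest of the chromosome the fold was higher at E9.5 in 6 of 10 pairs. These counts were not tested, since each stage had 1 library and a large share of the pairs lie in 1 stretch.

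**Figure D5:**
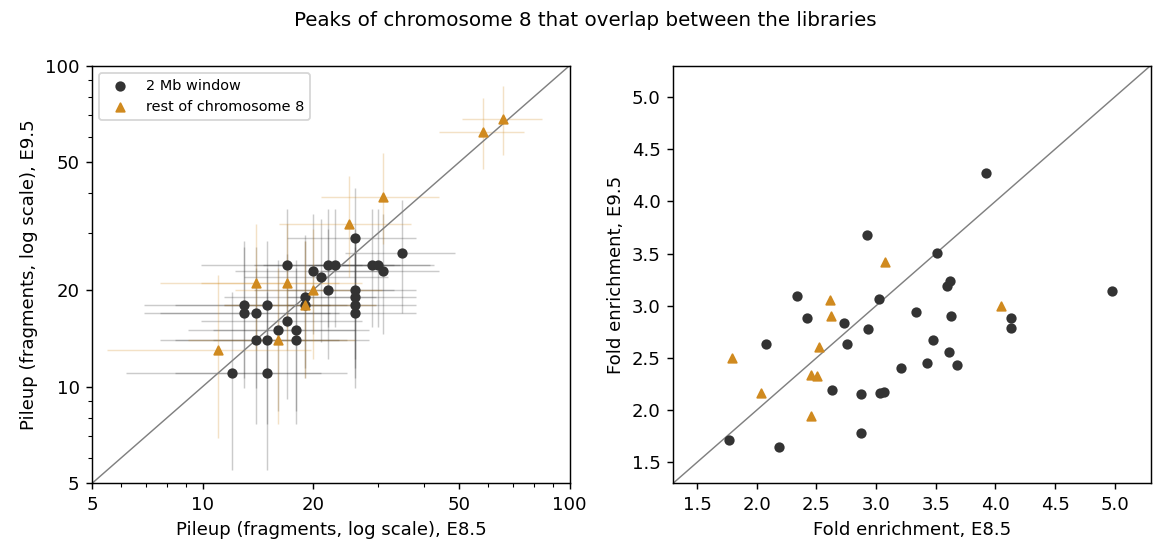
Pileup (left, log scales, with exact 95% intervals) and fold enrichment (right) of overlapping peaks, E9.5 on the vertical and E8.5 on the horizontal axis, with a grey line of equality. Circles are the 29 pairs of the window, of which 22 lie below the line in fold, and triangles the 10 pairs of the rest of the chromosome. The E8.5 peak from 19721594 to 19722672 gives 2 of the circles.

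Outside the window most of the chromosome held no peak or a single one. Of 129 steps of 1 Mb, 26 had an E9.5 peak and 20 an E8.5 peak, and 21 and 16 of those had just 1. The step from 71 to 72 Mb held 10 E9.5 and 9 E8.5 peaks, and the step from 55 to 56 Mb held 5 and 4. Neighbours less than 100 kb apart formed 5 groups of at least 3 peaks over both lists, a definition made after the lists were seen. The groups took in 15 E9.5 and 14 E8.5 peaks, of which 7 (46.7%) and 7 (50%) overlapped the other list, against 43.3% and 41.2% in the window. Of the lone peaks, 3 of 27 E9.5 and 3 of 20 E8.5 peaks did. Peaks of both lists counted towards the 3, so peaks that overlap helped to form a group. The group from 55118621 to 55122179, for example, held 2 peaks of each list, all of them overlapping. The overlap shares of groups and lone peaks thus depend in part on the definition and do not show that grouped peaks recur more.

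The largest of these groups lay over Gm5373 and Gm40504, a predicted protein-coding and a long non-coding gene, between 71808545 and 71857989. It held 8 E9.5 peaks with folds of 1.74 to 3.23 and 6 E8.5 peaks with folds of 1.78 to 2.62, and 4 peaks of each list overlapped. Gm5373 alone had 6 E9.5 peaks and 4 E8.5 peaks. Backgrounds in the group were 6.19 to 8.79 fragments at E9.5 and 5.88 to 8.81 at E8.5, above the minimum of each library. The E9.5 peak at 71826714 to 71827137, inside both genes, was the one of the group with a q-value of at most 0.05 (q = 0.00557, fold 3.23, pileup 24). Gm7827 and Gm38415, in the same step of 1 Mb, had 1 peak each per library with folds of 1.70 to 2.45.

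The single largest pileup outside the window lay between 55 and 56 Mb in each list, at the predicted gene Gm51572. Gm51572 had 68 fragments (52.8 to 86.2) and 3.42-fold enrichment at E9.5 (q = 3.27e-13), and 66 fragments (51.0 to 84.0) and 3.07-fold enrichment at E8.5 (q = 2.08e-10). Both pileups are the largest of chromosome 8 in their list, and the background there was 19.2 and 20.8 fragments. A second pair in Gm51572, within 2 kb of Gm51571, had folds of 1.94 at E9.5 and 2.45 at E8.5. The peak that overlapped the Gm51573 promoter printed above had its summit at -391 bp from the start site, outside the printed bases. That peak had 42 fragments (30.3 to 56.8) with 4.78-fold enrichment and a q-value of 1.15e-12 at E9.5, without an E8.5 partner. It was the highest fold of the E9.5 list on this chromosome. A peak of 1405 bp that overlapped the pseudogene Gm46063 had 36 fragments and 3.49-fold enrichment at E9.5. An E8.5 peak within 2 kb of Gm46063 had 35 fragments and 2.12-fold enrichment, and the 2 did not overlap.

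Among the lone peaks, 3 positions recurred at both stages. One lay in the array of 5S ribosomal RNA genes, which encode the small RNA of the large ribosomal subunit. The annotation places all 48 rRNA genes of chromosome 8 between 123538784 and 123622046. The E9.5 peak (123600830 to 123601203) had 14 fragments and 3.00-fold enrichment, and the E8.5 peak (123600857 to 123601281) 16 fragments and 4.05-fold enrichment. Their summits were 19 bp apart, within 2 kb of the 5S gene n-R5s136 and the pseudogene Rn5s-ps1, and the background was 4.00 fragments at E9.5 and 3.20 at E8.5. Only the E8.5 peak had a q-value under 0.05 (0.00706). In all, 1 of the 48 rRNA genes had an E9.5 peak within 2 kb and 2 an E8.5 peak, and over all chromosomes 1 and 3 of 63 rRNA genes did. Fragments from this array could not be assigned to one repeat unit if the units are alike, which was not tested.

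The others lay inside the protein-coding genes Dlgap2 and Tusc3. Dlgap2, which encodes a scaffold protein of the postsynaptic density, had a pileup of 62 at E9.5 and 58 at E8.5, with summits 6 bp apart and folds of 2.61 and 2.52. Tusc3, which encodes a subunit of the oligosaccharyltransferase complex, had 39 fragments and 2.90-fold enrichment at E9.5 (q = 0.000137) and 31 fragments and 2.62-fold enrichment at E8.5 (q = 0.0319), with summits 27 bp apart. Backgrounds of 12.8 fragments at E9.5 and 11.2 at E8.5 in Tusc3, and of 23.2 and 22.4 in Dlgap2, were above the minimum.

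Galntl6, a gene of the polypeptide N-acetylgalactosaminyltransferase family with a body of 1140 kb, had 1 peak in each library, at different places. The fold was 3.38 at E9.5 (58297158 to 58297497) and 2.71 at E8.5 (57898695 to 57898950). Of the 18 genes with a body over 500 kb, 3 had an E9.5 peak, Dlgap2, Galntl6 and the teneurin gene Tenm3, and 2 an E8.5 peak, Dlgap2 and Galntl6. Among all genes the shares were 0.877% and 0.741%, and a body this long offers more sequence for a peak to lie in. Protein-coding genes with a peak within 2 kb in both libraries numbered 7 of the 1020 outside the window: Dlgap2, Tusc3, Gm51571, Gm51572, Galntl6, Gm7827 and Gm5373. That is 0.686%, and over all chromosomes 71 of 21887 protein-coding genes (0.324%) had one in both.

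The other lone peaks were weak. Over all lone peaks, with the 3 recurring positions included, median pileups were 9 for 27 E9.5 peaks and 10 for 20 E8.5 peaks. Of these peaks, 18 and 15 had the minimum background. At E9.5 single peaks lay in Gatad2a, a subunit gene of the NuRD chromatin remodelling complex (fold 2.62), in Tenm3 (2.41), in Wwc2 (2.56) and in Scoc (2.66). At E8.5 they lay in Cnot1, the scaffold of the CCR4-NOT deadenylase complex (fold 3.33), in Ap3m2, a subunit gene of the AP-3 adaptor complex (2.47), in Pskh1 (2.47) and in Rnf150 (2.47). A peak within 2 kb of Bst2, which encodes the antiviral protein tetherin, had a fold of 2.71 at E8.5. A330008L17Rik, a long non-coding gene whose peaks form one of the 5 groups, had 3 E8.5 peaks over 42.3 kb, with folds of 2.22 to 3.21, and 0 E9.5 peaks. None of the genes named in this paragraph reached a q-value of 0.05.

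Other families of chromosome 8 held no peak within 2 kb at either stage: 0 of 8 cadherin genes (Cdh), which mediate cell adhesion, 0 of 20 carboxylesterase genes (Ces), 0 of 4 metallothionein genes, 0 of 4 Irx homeobox genes, 0 of 28 Zfp zinc finger genes and 0 of 56 miRNA genes. With 0.877% and 0.741% of all genes carrying a peak, a count of 0 in lists this short shows little. Genes with a Gm name had peaks in 20 of 1068 cases at E9.5 and in 20 at E8.5, and RIKEN clone genes in 6 of 123 and in 5. These counts are for the whole chromosome and include genes of the window already described. The window holds 31 of the Gm genes and 4 of the RIKEN clone genes, and all 4 of the latter had a peak in both libraries.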

How the data were processed

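DNA of 1 E9.5 and 1 E8.5 brain library was analysed as deposited peak lists, with no replicates. Per the submitters' processing notes, reads were trimmed with cutadapt 1.9.2 and aligned with Bowtie2 2.2.4 to mm10. Per the file headers, peaks were called per library with MACS 2.1.1.20160309 at a p-value of 0.01, with local backgrounds over 1000 and 10000 bp. Of 16657092 E9.5 and 16538763 E8.5 fragments, 15349825 and 15375941 were kept, and 9603633 input fragments served both lists. Alignment names in the headers mark duplicate removal, yet the caller, which allowed up to 2 copies per position, still dropped fragments, so copies may remain. The headers also state that the larger library is scaled to the smaller, but the deposited pileups are whole numbers although the IP libraries are the larger, so the IP was not scaled down. How fragments with several alignments were treated is not stated. The deposited pileup is a signal in whole fragments, the deposited fold enrichment is a ratio of pileup to background, and the p-value and q-value are deposited as −log10 values. The headers say that q would not be calculated, yet the column is filled. The lowest background was 3.14 fragments at E9.5 and 3.05 at E8.5.

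Peaks were placed by summit, and background was recovered as (pileup + 1) / fold − 1. Genes and promoters came from RefSeq on GRCm38.p6, and a gene was counted with a peak in its body extended by 2 kb. Overlap between lists, gene counts and the intervals of shares and medians were tested on simulated data, and the other steps were not. Members, lists and the window were chosen with earlier results of these data known. Named regions are, inside and outside the window, the 8 highest folds per library and the highest ranked of the overlapping pairs, then the outside peaks with a q-value of at most 0.05, the defensins and the protein-coding genes with peaks in both libraries. Other genes and all promoters were named after their values were seen. Tables were made in Python 3.11.15 (pandas 2.3.3, numpy 2.4.6), intervals with scipy 1.17.1 and plots with matplotlib 3.10.9.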

Additional observations from a re-analysis of the deposited data

How the results depend on the processing

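Of 78 values under alternatives, 50 stayed within the interval of the main value or within 1.5 times of the main count. Values below are for E9.5 and then E8.5. With both lists limited to q-values up to 0.05, the window's share at E8.5 was 76.5% (13 of 17). The median spacing was then 70350 and 42565 bp, the median pileup 24 and 23, the median length 394.5 and 512 bp, and the overlap 20% and 15.4% inside the window (2 of 10 and 2 of 13) and 50% and 75% outside it (3 of 6 and 3 of 4). Restricting lists in this way leaves few peaks, so 3 pairs decide the outside shares. Genes with such a peak numbered 5 and 5 inside the window and 12 and 11 on the chromosome, against 13 and 14, and 37 and 36. With genes extended by 10 kb they were 21 and 22, and 62 and 62. With the upper 50% of folds the spacing was 19428 and 19984 bp, and the median length at E8.5 455 bp. The narrower window from 20 to 21 Mb held 47.7% and 52.0% of the peaks. Without the peaks from 55 to 56 Mb and 71 to 72 Mb, chosen after seeing the data, the window's share was 71.3% and 76.4%, and the overlap outside it 11.1% (3 of 27) and 14.3% (3 of 21). Reciprocal overlap of at least 50%, summits at most 200 bp apart and merging of close peaks left the values within their intervals. A window from 18 to 22 Mb holds the same peaks as the main window. Its values could not change, count among the 50 for that reason alone and are no sign of stability. The window's pileups rest on 9 to 42 fragments, which limits comparison of single peaks. No paired analysis was possible because each stage had 1 library.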
